A study of Mus musculus with 8 samples.

Results

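The genes described here build and remodel the extracellular matrix: the collagen chains, the matrix metalloproteinases (MMPs), their tissue inhibitors (TIMPs), the ADAMTS proteases and the lysyl oxidases. Members are all probe sets that the array annotation pairs with a single gene symbol of these families. The rule reads gene names and no measured value, although the families were proposed with earlier results of these data known. On the tumour array this gave 160 of 45101 probe sets and 83 of 18194 genes: 42 collagen chains, 18 MMPs, 4 TIMPs, 15 ADAMTS proteases and 4 lysyl oxidases. The array used for the adenovirus livers held 112 of 22690 probe sets and 69 of 12394 genes, with 36 collagen chains, 18 MMPs, 4 TIMPs, 7 ADAMTS proteases and 4 lysyl oxidases. All member probe sets of the smaller array were also on the tumour array.

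All mice lacked p53 and were on a C57BL/6J background. The tumour data set held 6 hepatocellular carcinomas (HCC), 1 per array, from HBs transgenic mice aged 12 to 15 months. By the series design the tumours came from 3 mice per group. Of the tumours, 3 came from mTERC- mice, which lack the telomerase RNA component, and 3 from mTERC+ mice, which carry it. The adenovirus data set held 1 array per group, each of liver RNA pooled from 3 mice 48 hours after intravenous infection. Of these, 1 pool received a virus for TRF2DBDM, an altered form of the telomere protein TRF2, and the second pool a GFP virus. No uninfected liver and no tissue adjacent to the tumours is compared here. The tissue label reads hepatocytes on every array, although the series design describes RNA from liver and from tumours, and tumours are numbered below only to tell them apart.

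Collagen is made as procollagen chains that are hydroxylated, folded into a triple helix, secreted, trimmed and then cross-linked by lysyl oxidases into fibrils (types I, III and V), or assembled into the sheet-like network of basement membranes (type IV). MMPs cut collagens, gelatin, elastin and other matrix proteins, ADAMTS proteases cut proteoglycans or trim procollagen, and TIMPs block the active site of these metalloproteinases. In liver, hepatic stellate cells and fibroblasts are the best known source of fibrillar collagen and TIMPs in scarring, while macrophages and neutrophils bring MMPs of their own.

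Values are MAS5 signals on a linear scale, with a 2% trimmed mean of 150 on each array, and differences are of log2(signal + 32), a scale that understates the change of dim genes. The array of mTERC- tumour 2 stood apart. Its Gapdh control had a 3'/5' signal ratio of 13.8, a sign of shortened or incompletely copied RNA, against 0.983 to 1.18 on the other tumour arrays. The same ratio of its Actb control was raised less, at 2.28 against 1.30 to 1.64. Its median signal was 75.1 against 54.5 to 59.4. It gave the highest of the 6 signals for 18 of the 51 members tested (35.3%) and for 27.2% of all genes tested. Where leaving it out moved a described member's difference by more than 1.5 times, the value without it, on the same probe set, is given as well. Hepatocyte markers had signal in every tumour, with summed signals of 199683 to 285011 in mTERC- and 238130 to 311698 in mTERC+ tumours over 12 tested markers.

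The tumour comparison set carcinomas of mice lacking the telomerase RNA component against carcinomas of mice carrying it. A gene was tested where its mean level reached the median of all probe sets, which 51 of the 83 members did. In limma with Benjamini-Hochberg adjustment over all 11980 tested genes, 0 of the 51 passed at an adjusted p below 0.05, where 0.00835% of all genes (1 gene) did. The smallest adjusted p of a member was 0.906. At an unadjusted p below 0.05 there were 3 members, Timp1 and Mmp7 with a higher and Mmp12 with a lower mean in mTERC- tumours, beside 5.04% of all genes. The median log2 difference of mTERC- minus mTERC+ was 0.07 over the members and 0.02 over all genes, with 28 members higher and 23 lower in mean.

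The 3 signals of each group did not overlap for 5 members that were higher in mTERC- tumours (Timp1, Mmp7, Mmp9, Col4a4 and Adamts5), where 5.75% of all genes did this. They did not overlap for 2 that were lower (Adamts4 and Mmp19), where 4.39% of all genes did. These counts, on the probe set of highest mean of each gene, moved with single arrays. The shares of all genes were larger too, since fewer tumours were compared. The filter and probe sets were chosen anew each time, so that 48 to 53 members were tested. Without mTERC- tumour 2 the counts were 3 higher and 3 lower of 48 members, beside 10.2% and 9.87% of all genes. The members' median log2 difference was then -0.13. The counts were 8 and 3 without mTERC- tumour 1, beside 13.2% and 10.1% of all genes, and 5 and 3 without mTERC- tumour 3, beside 11.2% and 9.38%. Without mTERC+ tumour 1 they were 4 and 4, beside 9.99% and 8.34% of all genes. Without mTERC+ tumour 2 they were 10 and 7, beside 10.6% and 8.43%, and without mTERC+ tumour 3 they were 7 and 4, beside 11.3% and 9.7%. On the probe sets of the full comparison, 7 of the 51 members changed sign without mTERC- tumour 2 (Adamts10, Col12a1, Col2a1, Loxl1, Mmp2, Mmp13 and Timp4), all from a higher to a lower mean. On those probe sets, 5 of the 51 were higher and 5 lower without overlap when that tumour was left out. In RNA of whole tissue, fewer cells of a type and less RNA per cell cannot be told apart.

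**Figure D1:**
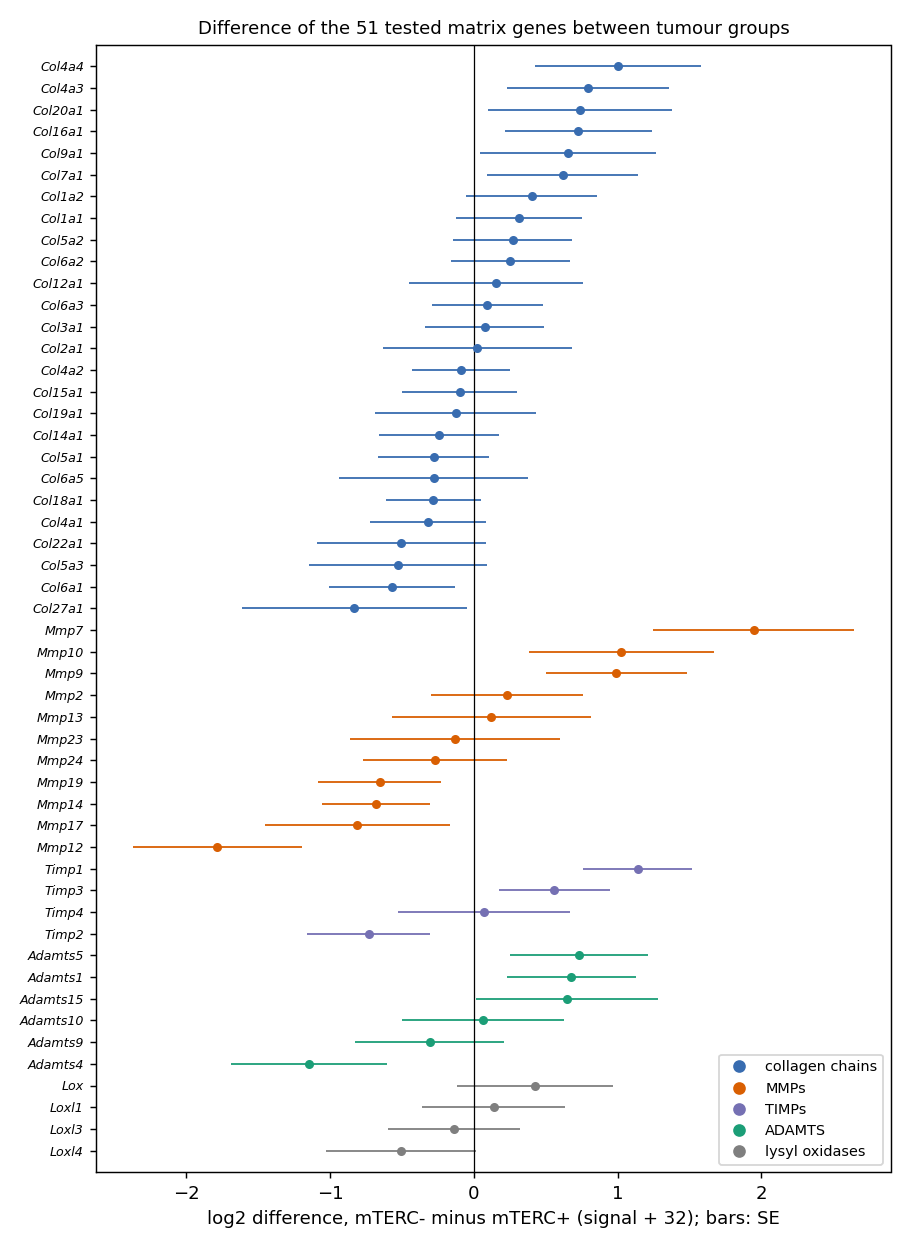
Log2 difference (mTERC- minus mTERC+, log2 of signal + 32, horizontal axis) of each of the 51 tested matrix genes, grouped by family, with bars of 1 standard error from limma. Mmp7 at 1.95 and Timp1 at 1.14 lie farthest right and Mmp12 at -1.78 farthest left, and none of the genes passed after adjustment.

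Of the 4 inhibitors, 3 had a higher and 1 a lower mean in mTERC- tumours. Timp1, the inducible inhibitor that is produced in injured and scarring liver and whose gene lies on the X chromosome, had signals of 1199, 859 and 1104 in mTERC- tumours, against 688.5, 276 and 494 in mTERC+ tumours. Every mTERC- tumour lay above every mTERC+ tumour, and the group means were 1054 ± 175 in mTERC- tumours and 486 ± 206 in mTERC+ tumours (SD, n = 3 each). The log2 difference was 1.14 with a standard error of 0.38, and the limma adjusted p was 0.906 (unadjusted p = 0.00874). Without mTERC- tumour 2 the difference was 1.27, with an adjusted p of 0.975 in limma.

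Timp2, which both inhibits MMPs and helps MMP14 activate pro-MMP2 at the cell surface, had signals of 445, 477 and 228.5 in mTERC- tumours, against 487, 1178.5 and 430.0 in mTERC+ tumours. Its mean was lower in mTERC- tumours by a log2 difference of -0.73 and only mTERC+ tumour 2 stood clear of the other tumours. Timp3, the inhibitor that binds to the matrix, had signals of 366, 419.9 and 668 in mTERC- tumours, against 309.6, 211.5 and 439.6 in mTERC+ tumours. The groups overlapped, with a log2 difference of 0.56, and its 4 probe sets disagreed, ranging between -0.18 and 1.02. Timp4 varied widely among single tumours, with signals of 216.5, 624 and 464 in mTERC- tumours and 1286, 263 and 148 in mTERC+ tumours, and a log2 difference of 0.07, or -0.23 without mTERC- tumour 2.

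Among the MMPs, 11 of 18 were tested. Mmp7 (matrilysin), which epithelial cells secrete, had signals of 78.9, 621 and 52.2 in mTERC- tumours, against 12.2, 15.1 and 19.1 in mTERC+ tumours. The groups did not overlap, but mTERC- tumour 2 held most of the signal. The log2 difference was 1.95 (SE 0.70, limma adjusted p = 0.953). On the same probe set it was 1.03 without mTERC- tumour 2, where the gene's mean no longer reached the level filter and it was not tested.

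Mmp12, the macrophage elastase, went the other way, with signals of 127, 6.90 and 62.8 in mTERC- tumours, against 555, 101 and 274 in mTERC+ tumours. The group means were 65.5 ± 60.0 in mTERC- tumours and 310.2 ± 229 in mTERC+ tumours (SD, n = 3 each), and mTERC- tumour 1 lay above mTERC+ tumour 2. The log2 difference was -1.78 (SE 0.59, limma adjusted p = 0.906), and -1.23 without mTERC- tumour 2. Macrophage markers differed in the same direction: 13 of 14 tested markers had a lower mean in mTERC- tumours, with 0 past the adjusted threshold. Their summed signal was 17732 to 24689 in mTERC- tumours and 14456 to 72140 in mTERC+ tumours, with no marker listed at 0. The tumour with the highest marker sum, mTERC+ tumour 2, had the lowest Mmp12 signal of its group. The part of macrophage content in the Mmp12 difference was not tested.

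Mmp9, the gelatinase stored in neutrophil granules and also made by macrophages, had signals of 101, 142 and 149 in mTERC- tumours, against 71.3, 74.3 and 16.5 in mTERC+ tumours. All mTERC- tumours were higher on this probe set, with a log2 difference of 0.99 (SE 0.49, limma adjusted p = 0.953). It was 0.93 without mTERC- tumour 2. On the other Mmp9 probe set the groups overlapped, at a log2 difference of 1.18. Its signals were 158.7, 37.8 and 324.5 in mTERC- tumours, against 13.0, 143 and 20.1 in mTERC+ tumours. The mean was higher in mTERC- tumours for all 9 tested neutrophil markers, of which 1, S100a8, passed in limma with an adjusted p of 0.0246. Their summed signal was 30158 to 55496 in mTERC- tumours and 20502 to 30442 in mTERC+ tumours, of which Lcn2, which hepatocytes also make in inflammation, held 75.3%. Without Lcn2 the sum was 9078 to 21979 in mTERC- tumours and 398 to 3024 in mTERC+ tumours, which do not overlap, and no marker was listed at 0. Mmp8, the neutrophil collagenase, was below the level filter, with signals of 202, 34.9 and 4.20 in mTERC- tumours and 12.9, 17.4 and 52.7 in mTERC+ tumours, so that only mTERC- tumour 1 stood out. The part of neutrophil content in the Mmp9 difference was not tested.

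Of the 8 other tested MMPs, 5 had a lower mean in mTERC- tumours. Mmp14 (MT1-MMP), which cuts fibrillar collagen at the cell surface and activates pro-MMP2, had signals of 711, 413 and 779 in mTERC- tumours, against 1426, 947.5 and 739 in mTERC+ tumours. Only mTERC+ tumours 1 and 2 exceeded all mTERC- tumours, and the log2 difference was -0.68, or -0.41 without mTERC- tumour 2. Mmp17 and Mmp24, which are also membrane-bound, had log2 differences of -0.81 and -0.27, the second -0.67 without mTERC- tumour 2.

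Mmp19, a secreted MMP, had signals of 68.4, 78.4 and 71.7 in mTERC- tumours, against 148, 92.3 and 168 in mTERC+ tumours. The groups did not overlap, at a log2 difference of -0.65. Without mTERC- tumour 2 its other probe set had the higher mean and gave 0.19, while the same probe set gave -0.69. Mmp10 (stromelysin-2) had signals of 45.5, 182 and 89.6 in mTERC- tumours, against 5.20, 105 and 14.9 in mTERC+ tumours, and overlapped at a log2 difference of 1.03, or 0.65 without mTERC- tumour 2. Mmp2, the gelatinase that stromal cells make, and Mmp13, the main interstitial collagenase of mice, had log2 differences of 0.23 and 0.12. Without mTERC- tumour 2 they were -0.07 and -0.15. The other probe set of Mmp2, also above the filter, gave -0.69. Mmp23 varied between 12.7 and 280.3 over the 6 tumours, with a log2 difference of -0.13, or -0.94 without mTERC- tumour 2.

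**Figure D2:**
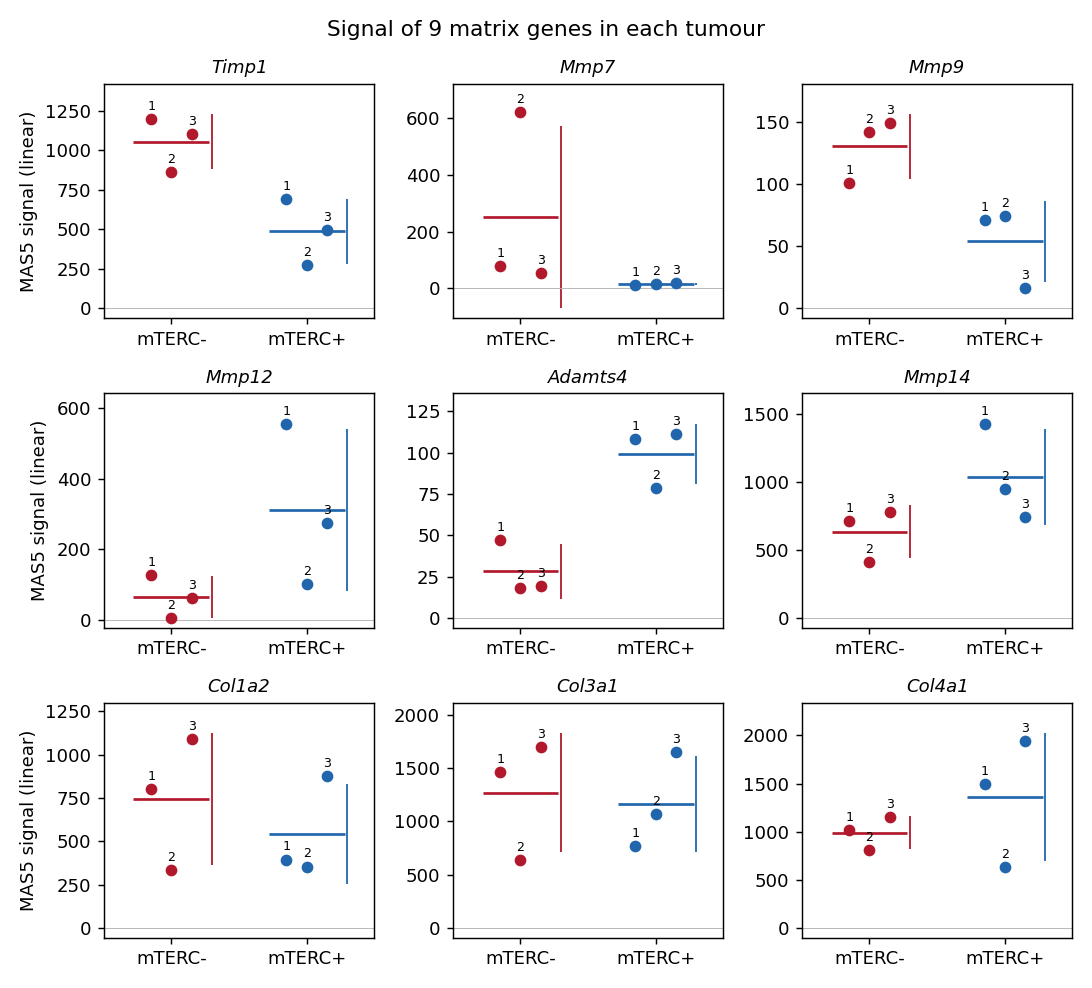
MAS5 signal (linear vertical axis) of 9 matrix genes in the 3 mTERC- tumours (red, left) and the 3 mTERC+ tumours (blue, right), with tumour numbers beside the points, horizontal lines at the group means and vertical lines of 1 SD. Timp1, Mmp7 and Mmp9 do not overlap, the 3 mTERC- points of Adamts4 lie below all mTERC+ points, and the collagen chains in the bottom row overlap.

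Mmp7 and Mmp12, the members with the largest differences in either direction, lie in the same cluster. On GRCm38.p6, 9 MMP members (Mmp1a, Mmp1b, Mmp3, Mmp7, Mmp8, Mmp10, Mmp12, Mmp13 and Mmp20) start within 427 kb of chromosome 9, at 7272514 to 7699585. Their start regions are shown for Mmp12 and Mmp7 and for 3 neighbours, because the cluster members share the motifs described next. The RefSeq sequences are shown from 100 bases before to 10 bases after the annotated start, on the plus strand. Mmp12 and Mmp7 have 2 annotated starts each, and the start whose window holds the motifs is shown. Capitals mark TGANTCA, the site that AP-1 factors bind, and TATAAA, the TATA box sequence.
Mmp12, chr9:7347274-7347383: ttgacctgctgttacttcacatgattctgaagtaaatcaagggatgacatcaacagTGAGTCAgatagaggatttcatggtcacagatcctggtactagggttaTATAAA
Mmp7, chr9:7691990-7692099: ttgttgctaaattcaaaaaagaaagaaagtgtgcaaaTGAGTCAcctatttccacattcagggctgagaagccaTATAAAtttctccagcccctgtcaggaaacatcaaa
Mmp10, chr9:7502242-7502351: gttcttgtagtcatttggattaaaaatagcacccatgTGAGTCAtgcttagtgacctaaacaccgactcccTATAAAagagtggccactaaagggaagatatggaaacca
Mmp13, chr9:7272414-7272523: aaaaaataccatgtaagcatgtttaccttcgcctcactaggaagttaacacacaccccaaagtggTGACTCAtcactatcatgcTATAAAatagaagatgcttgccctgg
Mmp3, chr9:7445722-7445831: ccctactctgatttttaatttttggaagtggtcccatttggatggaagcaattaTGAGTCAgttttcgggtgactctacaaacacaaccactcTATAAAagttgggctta

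Windows running from 250 bases before to 50 bases after each start were searched for 3 motifs on both strands. The AP-1 site was TGANTCA, which reads the same on either strand. The TATA box was TATAAA, or TTTATA on the opposite strand, and the CCAAT box was CCAAT, or ATTGG on the opposite strand. Windows were matched for 57 of the 83 members. TGANTCA was present in 8 of 13 MMPs (61.5%), in 1 of 33 collagen chains (Col6a1), and in 0 of 4 TIMPs and 0 of 6 ADAMTS genes, against 8.97% of all 27025 genes with a window. Of the 9 cluster members, 8 held TGANTCA (all but Mmp8) and 9 held TATAAA, while 0 of the other 4 MMPs held either. TATAAA occurred in 69.2% of MMPs and 15.7% of all genes. Both Mmp7 and Mmp12 held TGANTCA on the gene's own strand, starting 63 and 44 bases before 1 of their 2 annotated starts. In both genes the window of the other start held neither TGANTCA nor TATAAA. The differences of Mmp7 and Mmp12 had opposite signs. A match describes letters in this window and not a used site.

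Of the 15 ADAMTS genes, 6 were tested. Adamts4 (aggrecanase-1, chromosome 1), which cuts aggrecan and versican, had signals of 47.4, 18.1 and 19.4 in mTERC- tumours, against 108, 78.5 and 111 in mTERC+ tumours. All mTERC- tumours were lower, with means of 28.3 ± 16.6 in mTERC- tumours and 99.4 ± 18.1 in mTERC+ tumours (SD, n = 3 each) and a log2 difference of -1.15 (SE 0.54, limma adjusted p = 0.953). It was -1.03 without mTERC- tumour 2. The other Adamts4 probe set, below the filter, gave 0.004. Adamts5, the other main aggrecanase, had signals of 105, 113 and 96.4 in mTERC- tumours, against 63.9, 60.8 and 30.5 in mTERC+ tumours. All mTERC- tumours were higher on this probe set, at a log2 difference of 0.73. On these probe sets the aggrecanases thus differed in opposite directions between group means. Another Adamts5 probe set above the filter overlapped, at 0.41. Its signals were 148, 117 and 16.4 in mTERC- tumours, against 78.4, 39.3 and 39.1 in mTERC+ tumours.

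Adamts1, a protease of versican and aggrecan, had signals of 98.2, 324 and 181 in mTERC- tumours, against 123, 126 and 66.7 in mTERC+ tumours. Its log2 difference of 0.68 was 0.31 without mTERC- tumour 2. Adamts15 likewise had its highest signal, 266, in mTERC- tumour 2, and its log2 difference of 0.65 was 0.01 without that tumour. Adamts9 and Adamts10 had log2 differences of -0.31 and 0.06, and of -0.58 and -0.25 without it. The other probe set of Adamts10, of nearly equal mean signal (82.1 against 81.7), gave 1.59.

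The fibrillar collagens overlapped between groups in all 8 tested chains, with a median log2 difference of 0.05 and 5 chains higher in mean (4 after quantile normalization or median centring). Col1a1 and Col1a2 encode the chains of type I collagen, the bulk of scar collagen. Col1a1 had signals of 256, 152 and 494 in mTERC- tumours, against 224, 142 and 294 in mTERC+ tumours. Col1a2 had signals of 802, 336.5 and 1088 in mTERC- tumours, against 395, 354 and 873 in mTERC+ tumours. Their log2 differences were 0.32 and 0.40, with standard errors of 0.44 and 0.46. Without mTERC- tumour 2, which had the lowest signals of its group, they were 0.67 and 0.87. Col3a1, the chain of type III collagen, had signals of 1465, 637.5 and 1701 in mTERC- tumours, against 769, 1069 and 1651 in mTERC+ tumours, a log2 difference of 0.08, or 0.50 without mTERC- tumour 2.

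Single tumours of both groups stood out in these chains. Col1a1, Col1a2, Col3a1 and Col6a3 each had their 3 highest signals in mTERC- tumours 1 and 3 and mTERC+ tumour 3, a pattern picked after the values were seen. It held for 4 of 51 tested members (7.84%), for 4.68% of all genes, and for 0 of the 16 tested markers of stellate cells and fibroblasts. The summed signal of those markers was 3377 to 5995 in mTERC- tumours and 4614 to 9301 in mTERC+ tumours, of which Rgs5 held 35.9%. Of the 16, 9 had a lower mean in mTERC- tumours, 0 passed, and none was listed at 0. The part of stromal cell content in the collagen levels was not tested.

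Of the minor fibrillar chains, Col5a1 had a log2 difference of -0.28 and Col5a2 one of 0.27, which was 0.16 without mTERC- tumour 2. Col5a3 had a lower mean in mTERC- tumours at -0.53, with the lowest signal, 5.80, in mTERC- tumour 2, and the log2 difference was -0.11 without that tumour. Col27a1, a chain of cartilage fibrils, had signals of 8.80, 31.4 and 258 in mTERC- tumours and 13.1, 265 and 284 in mTERC+ tumours, so that 1 mTERC- and 2 mTERC+ tumours were high and the other 3 low. Its log2 difference of -0.83 became 0.11 when its probe sets were averaged. Without mTERC+ tumour 3 its other probe set had the higher mean and gave 0.69, while the same probe set gave -0.35. Col2a1, the cartilage collagen, had a log2 difference of 0.02, or -0.11 without mTERC- tumour 2.

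**Figure D3:**
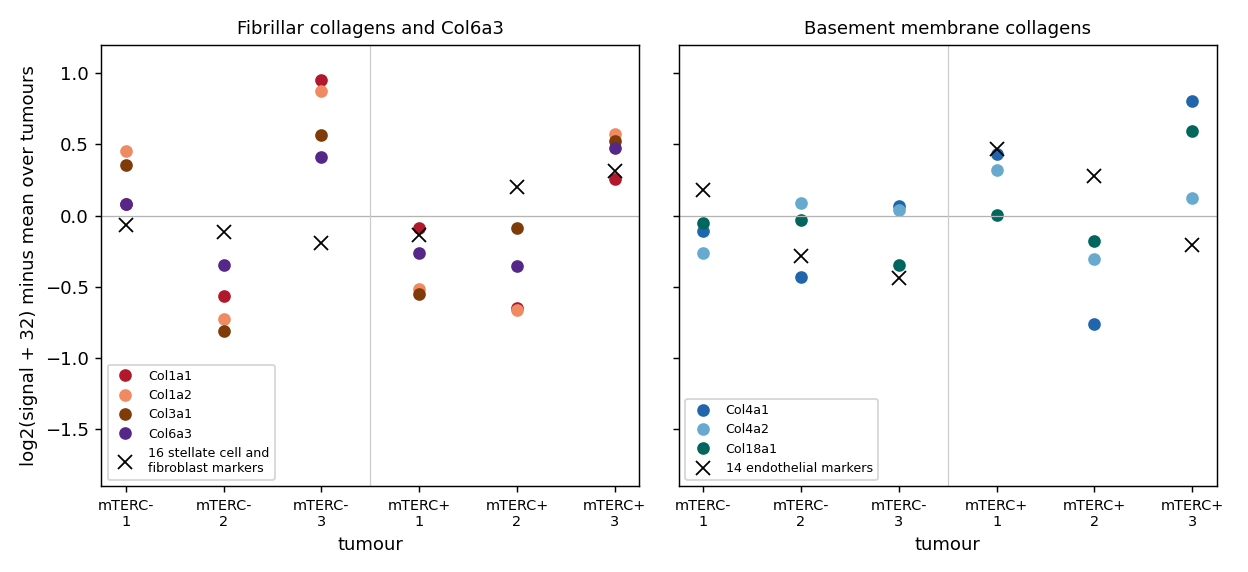
Level of collagen chains in each tumour as log2(signal + 32) minus the gene's mean over the 6 tumours (vertical axis), with crosses for the mean of the same quantity over 16 stellate cell and fibroblast markers (left) and 14 endothelial markers (right). Col1a1, Col1a2, Col3a1 and Col6a3 (left) are highest in mTERC- tumours 1 and 3 and mTERC+ tumour 3, a pattern picked after the values were seen. The crosses of the left panel do not have their 3 highest values in those tumours.

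Of the 7 tested basement membrane and anchoring chains, 6 overlapped between groups and Col4a4 did not. Col4a1 and Col4a2, which form the common type IV collagen, had signals of 1014, 806 and 1149.6 (Col4a1) and 563, 727 and 701.5 (Col4a2) in mTERC- tumours. In mTERC+ tumours the signals were 1491, 636 and 1943 (Col4a1) and 859.8, 545 and 744 (Col4a2). Both chains had their lowest signal of the 6 tumours in mTERC+ tumour 2, and their log2 differences were -0.32 and -0.09, or -0.18 and -0.16 without mTERC- tumour 2. Col18a1, whose C-terminal fragment is endostatin and which hepatocytes also express, had signals of 1829.8, 1858 and 1482 in mTERC- tumours, against 1901, 1669 and 2882 in mTERC+ tumours. Only mTERC+ tumour 3 stood above the others, and the log2 difference was -0.28. Col15a1, a related vascular basement membrane collagen, had a log2 difference of -0.10.

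Col4a1 and Col4a2 lie head to head on opposite strands of chromosome 8, with annotated starts 21 bases apart and promoter windows that share 78 bases. The RefSeq window of Col4a1 (GRCm38.p6, minus strand, 250 bases before to 50 after the start) is shown because it holds the starts of both chains. Capitals mark ATTGG, which is CCAAT on the other strand, the strand of Col4a2.
Col4a1, chr8:11312777-11313076: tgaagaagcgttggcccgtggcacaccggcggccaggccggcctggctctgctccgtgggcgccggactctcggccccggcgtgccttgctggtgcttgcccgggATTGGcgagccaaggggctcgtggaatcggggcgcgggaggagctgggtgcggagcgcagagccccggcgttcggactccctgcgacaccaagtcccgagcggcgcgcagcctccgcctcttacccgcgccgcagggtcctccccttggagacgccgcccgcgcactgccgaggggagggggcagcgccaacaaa
The marked motif lies 145 bases before the annotated start of Col4a1 and 162 bases after that of Col4a2. A separate CCAAT, outside the letters shown, starts 32 bases before the annotated start of Col4a2. CCAAT in either orientation was in 35.1% of members and 41.1% of all genes with a window.

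Col4a3 and Col4a4 encode the type IV chains of kidney and lung basement membranes and likewise form a pair. Col4a4 had signals of 94.7, 109 and 59.3 in mTERC- tumours, against 53.2, 11.3 and 22.8 in mTERC+ tumours. The groups did not overlap, at a log2 difference of 1.00 (SE 0.58, limma adjusted p = 0.953) close to the level filter. Col4a3 overlapped, with signals of 39.6, 263.5 and 149 in mTERC- tumours and 27.7, 61.3 and 100.4 in mTERC+ tumours, and its log2 difference of 0.79 was 0.33 without mTERC- tumour 2. Col7a1, the anchoring fibril collagen, had a log2 difference of 0.62, with 1 low signal of 16.3 in mTERC+ tumour 1.

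The 11 tested microfibril and fibril-associated chains all overlapped between groups. Col6a1 and Col6a2, chains of the beaded filaments of type VI collagen, had log2 differences of -0.57 and 0.25, and Col6a3 one of 0.09. Col6a2 lay at 0.01 and Col6a3 at 0.29 without mTERC- tumour 2. Col6a1 had signals of 57.9, 144 and 126 in mTERC- tumours, against 156, 115.5 and 264 in mTERC+ tumours. Col14a1, a fibril-associated chain, had signals of 247, 169 and 237 in mTERC- tumours and 279, 436 and 140.2 in mTERC+ tumours. Its log2 difference was -0.25, or -0.10 without mTERC- tumour 2, while another of its probe sets above the filter gave 0.98. Col16a1, Col20a1 and Col9a1 had log2 differences of 0.73, 0.74 and 0.66, and each had its highest signal (365, 229.9 and 155) in mTERC- tumour 2. Without that tumour the differences were 0.17, 0.15 and 0.32. Col22a1 was lower in mean at -0.51, Col12a1 and Col19a1 lay at 0.15 and -0.13, and Col6a5 at -0.28. Col12a1, Col19a1 and Col6a5 lay at -0.04, -0.55 and -0.90 without mTERC- tumour 2.

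The lysyl oxidases, which oxidise lysines of collagen and elastin so that the chains cross-link, showed no shared direction. Lox had signals of 47.1, 103 and 138.5 in mTERC- tumours, against 42.7, 129 and 30.8 in mTERC+ tumours, with a log2 difference of 0.42. Loxl4 had signals of 37.4, 107 and 76.5 in mTERC- tumours, against 241, 56.2 and 93.6 in mTERC+ tumours, and mTERC+ tumour 1 was the highest. Loxl1 and Loxl3 had log2 differences of 0.14 and -0.14, or -0.05 and -0.52 without mTERC- tumour 2.

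The 32 members below the level filter were 16 collagen chains, 7 MMPs and 9 ADAMTS genes, with mean signals of 5.88 to 66.7 over the 6 tumours. They included Col10a1, Col11a1 and Col17a1 of cartilage and skin, the rodent interstitial collagenases Mmp1a and Mmp1b, and Mmp3 (stromelysin-1). At the filter, Col22a1 lay just inside at the 50.2 percentile of probe set levels and Mmp16 just outside at 49.8. Spread among tumours of a group was a little wider for the tested members than for all genes, with a median within-group SD of 0.65 against 0.53 on the log2 scale. Where a member gene had at least 2 probe sets above the filter, these had the same sign for 16 genes and opposite signs for 10.

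Genes that act with the members were read from lists of other matrix and matrix-signalling genes, and 0 of the tested genes of each list passed in limma. Of 13 collagen-processing genes, 6 had a higher and 7 a lower mean in mTERC- tumours (median log2 difference -0.19). Plod1, a lysyl hydroxylase, had signals of 79.6, 93.0 and 354 in mTERC- tumours, against 559.9, 423.5 and 309 in mTERC+ tumours, at a log2 difference of -1.36. P3h1, a prolyl 3-hydroxylase, had signals of 221.5, 339 and 209 in mTERC- tumours, against 154, 59.4 and 114 in mTERC+ tumours. Its groups did not overlap, at 1.06 on the log2 scale. Serpinh1, the collagen chaperone HSP47, lay at -0.89.

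Among 11 laminins and other basement membrane genes, 6 were higher and 5 lower in mean, with a median of 0.02. Hspg2 (perlecan) had signals of 45.8, 153 and 58.7 in mTERC- tumours, against 243, 180.3 and 317 in mTERC+ tumours, and Lama4, a vascular laminin chain, had 57.4, 24.0 and 43.1 in mTERC- tumours, against 174, 59.1 and 154 in mTERC+ tumours. Both had no overlap, with log2 differences of -1.32 and -1.07 and limma adjusted p of 0.906 and 0.953. Endothelial markers had a lower mean in mTERC- tumours for 11 of 14 genes, with summed signals of 1904 to 2938 in mTERC- and 2492 to 4002 in mTERC+ tumours. None was listed at 0, and the part of endothelial content was not tested.

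The 15 other matrix proteins split 9 higher and 6 lower in mean, with a median of 0.14 and values between -0.73 (Tnc, tenascin C) and 0.72 (Fbln2, fibulin 2, or 0.44 without mTERC- tumour 2). The 16 genes of TGF-beta signalling, the best known driver of collagen transcription, split 7 and 9. Tgfb1 itself had signals of 211, 252 and 182 in mTERC- tumours, against 436, 265 and 304 in mTERC+ tumours. Every mTERC- tumour was lower, at -0.55 on the log2 scale. Ltbp3, which binds latent TGF-beta, lay at 1.28 and Tgfbi at -0.51.

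The 12 other matrix-degrading proteases split 6 and 6. Ctsb, the lysosomal protease cathepsin B, had signals of 10474, 3249 and 6912 in mTERC- tumours, against 20276, 12159.8 and 12025 in mTERC+ tumours, with no overlap, a log2 difference of -1.21 and a limma adjusted p of 0.906. Its difference was -0.75 without mTERC- tumour 2. Of 13 matrix receptors, 5 were higher and 8 lower in mean. Itgb6, the epithelial integrin chain that activates latent TGF-beta, had signals of 72.5, 111 and 112 in mTERC- tumours, against 8.50, 54.3 and 5.40 in mTERC+ tumours, at 1.35. Ddr2, a receptor for fibrillar collagen, had signals of 40.9, 58.2 and 9.80 in mTERC- tumours, against 84.0, 144 and 83.5 in mTERC+ tumours, at -1.03.

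The adenovirus pair asked how liver differed 48 hours after a virus for TRF2DBDM and after a GFP virus. With 1 pooled array per group there was no test and no replicate check, and the ratios compare these arrays only. A gene was compared where 1 or both pools had a signal at or above their array's median, which 29 of the 69 members did. In the TRF2DBDM pool 1 member was at least 2-fold higher, where 4.62% of all 7789 compared genes were, and 1 was at least 2-fold lower, where 2.9% were. The median log2 ratio of TRF2DBDM over GFP was 0.13 over the members and 0.02 over all genes, with 18 members higher and 11 lower. Median centring placed the median of all genes at -0.09 and split the members 15 higher and 14 lower.

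The member more than 2-fold higher was Lox, with a signal of 56.3 in the TRF2DBDM pool and 7.2 in the GFP pool, a log2 ratio of 1.17. Its GFP signal was below that array's median of 46.1, so Lox entered the comparison only through the pool in which it was higher. The same held for Col14a1, Col1a1 and Col4a5, while Col12a1, Loxl1 and Mmp9 entered only through the GFP pool and the other 22 members through both. The member more than 2-fold lower was Timp1, with 115.5 in the TRF2DBDM pool and 319.9 in the GFP pool, a log2 ratio of -1.25. Timp2 had 157.8 in the TRF2DBDM pool and 177.0 in the GFP pool, and Timp3 had 85.4 in the TRF2DBDM pool and 100.5 in the GFP pool. On these probe sets all 3 compared inhibitors were thus lower in the TRF2DBDM pool, also after quantile normalization and median centring. Other probe sets of Timp2 and Timp3 went both ways. For example, a Timp2 probe set had 66.7 in the TRF2DBDM pool and 50.4 in the GFP pool, and a Timp3 probe set 53.4 and 70.7. Timp4 was below the array median in both pools.

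The compared MMPs gave small ratios apart from Mmp9. Mmp9 had 22.8 in the TRF2DBDM pool and 76.8 in the GFP pool, a log2 ratio of -0.99. Mmp14 had 241.6 in the TRF2DBDM pool and 337.7 in the GFP pool, and Mmp7 had 55.2 in the TRF2DBDM pool and 85.9 in the GFP pool. Both had a log2 ratio below 0, at -0.43 for Mmp14 and -0.44 for Mmp7. Mmp2 had 97.0 in the TRF2DBDM pool and 67.1 in the GFP pool, a log2 ratio of 0.38. Neutrophil markers were lower in the TRF2DBDM pool for 6 of 8 genes, with summed signals of 12499 in the TRF2DBDM pool and 13778 in the GFP pool, or 1927 in the TRF2DBDM pool and 2832 in the GFP pool without Lcn2. The part of neutrophil content in Mmp9 was not tested.

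The 4 compared fibrillar chains were all higher in the TRF2DBDM pool, also after quantile normalization and median centring, with a median log2 ratio of 0.26. Below the filter, Col5a2 and Col11a1 were lower in that pool, with log2 ratios of -0.52 and -0.07. Col2a1, Col5a3 and Col11a2, also below it, were higher at 0.06, 0.14 and 0.70. Col1a1 had 72.2 in the TRF2DBDM pool and 38.1 in the GFP pool, a log2 ratio of 0.57. It passed the filter only through the TRF2DBDM pool, so the filter favoured its direction. Col1a2 had 261.1 in the TRF2DBDM pool and 218.6 in the GFP pool, and Col3a1 had 398.3 in the TRF2DBDM pool and 350.2 in the GFP pool, ratios of 0.23 and 0.17. None of these reached 2-fold. Another probe set of Col1a1 was lower in the TRF2DBDM pool, with 45.1 against 58.0 in the GFP pool. So was a dim probe set of Col1a2, with 6.8 against 18.2. Markers of stellate cells and fibroblasts were higher for 6 and lower for 5 of 11 genes, with summed signals of 2701 in the TRF2DBDM pool and 3579 in the GFP pool, or 1112 in the TRF2DBDM pool and 1045 in the GFP pool without Vim, which many cell types express.

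Col18a1 had the next highest ratio after Lox, with 798.4 in the TRF2DBDM pool and 453.9 in the GFP pool, a log2 ratio of 0.77. Hepatocytes express this chain, and 11 of 12 hepatocyte markers were also higher in the TRF2DBDM pool (10 after either rescaling), with a median log2 ratio of 0.42. The part of hepatocyte RNA in Col18a1 was not tested. Col4a1, with 351.5 in the TRF2DBDM pool and 343.0 in the GFP pool, and Col4a2, with 147.8 in the TRF2DBDM pool and 148.1 in the GFP pool, were nearly equal. Col6a1 had 182.6 in the TRF2DBDM pool and 114.3 in the GFP pool, and Col6a2 had 225.9 in the TRF2DBDM pool and 147.7 in the GFP pool. These ratios were 0.55 and 0.52, whereas Col6a3 lay at -0.03. Col14a1 and Col4a5 had ratios of 0.58 and 0.48, Loxl3 and Adamts1 0.39 and 0.41, and Loxl4 -0.47.

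In the lists of other matrix genes, 10 of 11 other matrix proteins were higher in the TRF2DBDM pool (8 after quantile normalization or median centring), with a median log2 ratio of 0.37. Fbln1 (fibulin 1) had 96.2 in the TRF2DBDM pool and 31.9 in the GFP pool. Collagen-processing genes were lower for 8 of 12, with a median of -0.34. P3h1 had 46.3 in the TRF2DBDM pool and 149.2 in the GFP pool, Serpinh1 had 146.2 in the TRF2DBDM pool and 267.5 in the GFP pool, and Bmp1, the procollagen C-proteinase, had 286.8 in the TRF2DBDM pool and 133.7 in the GFP pool. Bmp1 thus had a higher signal while the chaperone and hydroxylase had lower ones. Among TGF-beta genes, which split 5 and 5, Tgfbi had 444.6 in the TRF2DBDM pool and 154.9 in the GFP pool. Among proteases, Ctss (cathepsin S of macrophages) had 202.9 in the TRF2DBDM pool and 63.4 in the GFP pool. Macrophage markers were higher for 8 of 11 genes, 5 of them at least 2-fold, while 2 were at least 2-fold lower, and their part was not tested.

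Set beside each other, the tumour and liver arrays differ in array type, tissue state, HBs transgene, virus and age, which cannot be told apart, and the tables were scaled separately. Over the 22690 probe sets they share, the trimmed mean was 273 to 309 on the tumour arrays and 150 on the liver arrays, so deposited signals are not on the same scale. A gene was compared where its mean over the 8 arrays reached the median of the shared probe sets. As deposited, 17 of 26 compared members had all 6 tumours above both livers, where 44.3% of all 7055 genes did, and 0 had all tumours below, where 2.61% did. After each array was set to the same trimmed mean over shared probe sets, 7 of 26 members had all tumours above, where 14.7% of all 7057 genes did. In that scaling 2 had all tumours below, where 19.3% did. The median log2 difference of tumours minus livers was then 0.60 over the members and -0.07 over all genes. No test was made of these differences.

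The 7 members above both livers on the common scale were Timp3, Timp4, Col4a2, Col5a2, Col6a3, Col15a1 and Col18a1, and quantile normalization gave the same 7 and Col1a1. On that scale Timp4 had signals of 105, 343 and 233 in mTERC- tumours and 631, 131 and 73.6 in mTERC+ tumours, against 6.90 and 17.8 in the TRF2DBDM and GFP livers. Col5a2, a chain that mixes into type I fibrils, had 66.2, 142 and 139 in mTERC- tumours and 52.3, 120.4 and 97.1 in mTERC+ tumours, against 6.30 and 22.9 in the TRF2DBDM and GFP livers. Timp4, Col5a2 and Col15a1 were below the median signal of both liver arrays and passed the level filter through the tumours alone, so their order was fixed in part by the filter. The other 4 were at or above the median of 1 or both liver arrays. All 7 stand on the probe set of highest mean of each gene. Another probe set of Timp3 overlapped as deposited, with 15.3 in mTERC+ tumour 2 and 142 in mTERC- tumour 2. The TRF2DBDM and GFP livers had 53.4 and 70.7 on it. The order of Col18a1 also depended on the probe set, as given next.

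Col18a1 had scaled signals of 889, 1022 and 743 in mTERC- tumours and 933, 835 and 1430.0 in mTERC+ tumours, against 526 and 275 in the TRF2DBDM and GFP livers. Col4a2 had 273, 399.7 and 352 in mTERC- tumours and 422, 273 and 369 in mTERC+ tumours, against 148 and 148 in these livers. Every tumour was higher for both basement membrane chains on these probe sets, whereas Col4a1 overlapped because mTERC+ tumour 2, at 318, lay below both livers. For Col18a1 the adenovirus pair above was read from its other probe set. There the deposited signals were 484, 1032 and 670 in mTERC- tumours and 708, 811 and 1138 in mTERC+ tumours. They overlapped the 798.4 and 453.9 of the TRF2DBDM and GFP livers even before common scaling. Timp3 and Col15a1 had log2 differences of 1.31 and 0.92, and Col6a3 one of 0.69.

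The reverse order held for Col6a2 and Col5a1 on their probe sets of highest mean. Col6a2 had scaled signals of 55.7, 122 and 63.3 in mTERC- tumours and 40.1, 68.8 and 73.9 in mTERC+ tumours, against 226 and 148 in the TRF2DBDM and GFP livers. The other probe set of Col6a2 was not compared on the common scale. Its deposited signals overlapped, at 15.5 to 275.5 in tumours and at 138.8 and 110.4 in these livers. Col5a1 was lower by a narrow margin and overlapped after quantile normalization. Timp1 overlapped on the common scale, with 583, 473 and 553 in mTERC- tumours and 338, 138 and 245 in mTERC+ tumours, against 115 and 319.9 in the TRF2DBDM and GFP livers. The mTERC- tumours all lay above both livers, and the GFP pool lay among the mTERC+ tumours. Without mTERC- tumour 2, 9 of 25 members lay above and 2 below on this scale, where 17.8% and 23.2% of all genes did.

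**Figure D4:**
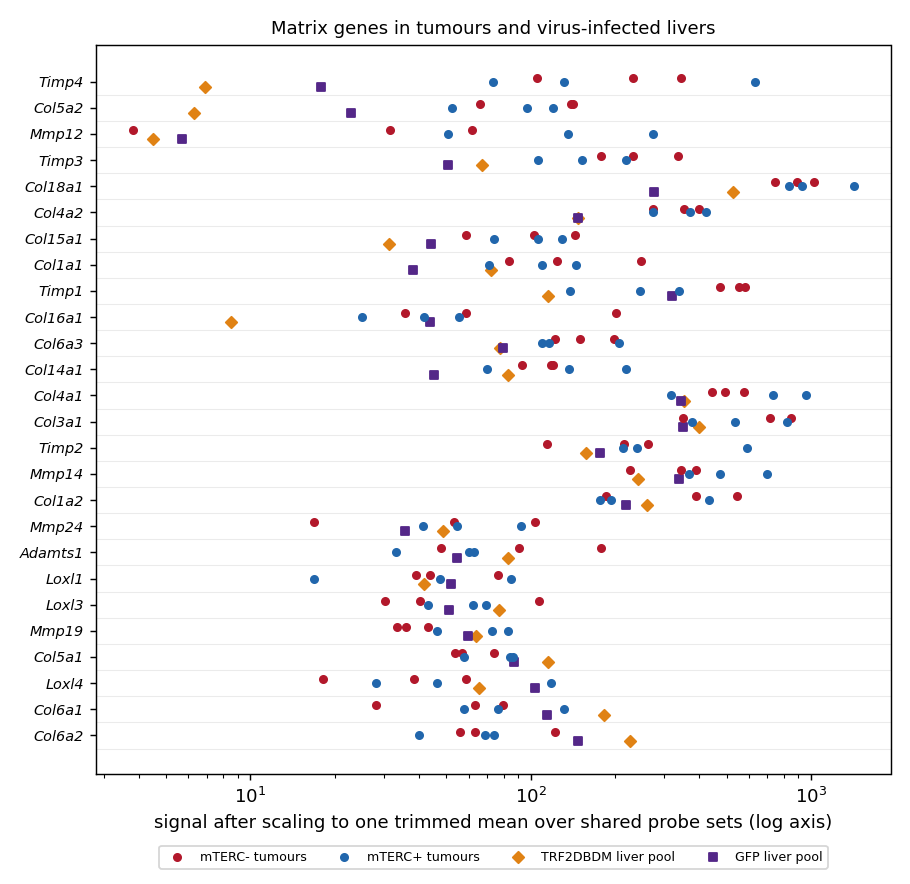
Signal (log axis) after setting each array to the same trimmed mean over shared probe sets, for 26 matrix genes ordered by the log2 difference of tumours minus livers, in mTERC- tumours (red), mTERC+ tumours (blue), the TRF2DBDM liver pool (orange) and the GFP liver pool (purple). Timp4 and Col5a2 lie at the top with all tumours to the right of both livers, and Col6a2 at the bottom with all tumours to the left.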

How the data were processed

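RNA of 6 tumours and 2 pooled livers was hybridised to 2 types of Affymetrix array. Per the submitters' processing notes, the authors deposited MAS5 signal intensities, which are linear and given for each probe set. The version of MAS5, its target and its detection calls were not used here, and the files show a 2% trimmed mean of 150 on each array. No depth lies behind an array value, and the number of arrays limits precision.

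Probe sets with 1 gene symbol in the platform annotation were used, and for each gene the probe set of highest mean was taken. The tumour groups were compared on log2(signal + 32) with limma 3.58.1 in R 4.3.3 (variance trend, two-sided, Benjamini-Hochberg over all tested genes) after a filter at the median level. The adenovirus pair and the tumours beside the livers were described without a test. Sequences and motifs came from RefSeq windows on GRCm38.p6, read with Python 3.11.15. The limma code was tested on simulated data.

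The members and gene lists were chosen with earlier results of these data known. Named first were up to 12 members in each direction by unadjusted p in the tumours and by ratio in the adenovirus pair, the member of each class with the highest tumour signal, up to 10 members by the gap between tumours and livers, and up to 3 genes per list. Other members were named to account for all that were tested. The alternatives tried were median centring, quantile normalization, pseudocounts of 1 and of more than 32, no filter and a filter at percentile 75, the mean of probe sets, every probe set, no variance trend, array weights, a common trimmed mean for both array types and each tumour left out.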

Additional observations from a re-analysis of the deposited data

How the results depend on the processing

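In 16 alternatives for the tumours 0 members passed in limma, and the members' median log2 difference ran between -0.13 and 0.19, which includes both signs. Members higher in mTERC- without overlap were 5 of 51, beside 689 of 11980 genes. With the filter at percentile 75 they were 1 of 20, beside 358 of 7103 genes. When probe sets were averaged they were 3 of 42, beside 605 of 10526 genes. When each tumour was left out they were 3 to 10 of 48 to 53 members, beside 9.99% to 13.2% of all genes. Members lower without overlap were 2 of 51, beside 526 of 11980 genes. With no filter they were 5 of 83, beside 817 of 18194 genes. They were 0 of 42 with the mean of probe sets, beside 452 of 10526 genes. With the stricter filter they were 0 of 20, beside 350 of 7103 genes. When each tumour was left out they were 3 to 7, beside 8.34% to 10.1% of all genes. A filter changes how many genes are tested, and the cause of the other shifts was not tested. Of 24 named members, 22 kept their direction in all alternatives in which they were tested, leaving aside the alternative with every probe set. In that alternative a gene can have several values. Those of Timp3 ran between -0.18 and 1.02 and those of Col27a1 between -0.83 and 1.06. When each tumour was left out, Mmp19 ran between -0.86 and 0.19, the highest without mTERC- tumour 2, where its other probe set stood for it. Col27a1 ran between -1.75 and 0.69, the highest without mTERC+ tumour 3, where its other probe set also stood for it, and gave 0.11 with the mean of probe sets. On the probe set of the full comparison neither gene changed sign when a tumour was left out, and Col27a1 gave -0.35 without mTERC+ tumour 3. The smallest adjusted p of a named member in any alternative was 0.444. Over all genes, 1 was called, against 0 to 4 higher and 0 to 2 lower in the alternatives. In the adenovirus pair 1 of 29 members was at least 2-fold higher, beside 360 of 7789 genes. With a pseudocount above 32 it was 0 of 29, beside 165 of 7789 genes. With the stricter filter it was 0 of 9, beside 243 of 4263 genes. With the mean of probe sets it was 0 of 25, beside 304 of 6987 genes. In the same pair 1 of 29 was at least 2-fold lower, beside 226 of 7789 genes. With quantile normalization, median centring or a pseudocount of 1 it was 2 of 29, beside 248, 333 and 438 genes. With averaged probe sets it was 2 of 25, beside 183 of 6987 genes. With the pseudocount above 32 it was 0 of 29, beside 80 of 7789 genes. The members' median log2 ratio ran between -0.002 and 0.18. Members with all tumours above both livers numbered 17 of 26 as deposited, beside 44.3% of all genes. On a common trimmed mean they were 7 of 26, beside 14.7%, and with quantile normalization 8 of 25, beside 15.7%. They were 9 of 25, beside 17.8%, on a common trimmed mean without mTERC- tumour 2, a setting added after the data were seen. The counts below both livers were 0, 2, 1 and 2 in these settings, beside 2.61%, 19.3%, 17.0% and 23.2% of all genes. No paired analysis was possible because the labels number no tumour as a partner of another. Dim members near the filter, and 3 arrays per group, limit what the comparison can show.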
